A study of Mus musculus with 6 samples.

Results

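The 31 genes described here had almost no reads in the control lung tumours of this mouse study and were read in every Keap1 knockout tumour. They were chosen on these same libraries, from CPM (counts per 1000000 reads of the library's total count): at most 1 CPM in each of the 3 controls and at least 5 CPM in each of the 3 knockouts. Of 56980 gene identifiers in the table, 42 met both limits. From these, 11 were set aside by symbol because they belong to named families, such as the drug-metabolising enzymes, or are named in the rule (Tdo2, Sdr16c6, Slc30a3, Gstm2-ps1, Cyp2a4, Cyp2g1, Ces1g, Eomes, Ggt1, Spink1 and Pga5), which left 31. The difference between the genotypes therefore defines the genes, and their levels in the 2 groups are given as a description, with no test.

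The study profiled bulk mRNA from mouse small cell lung cancers of a background that the labels call QKO, which they do not spell out. The 3 control tumours carried the QKO background alone, and the 3 Keap1 knockout tumours carried it with Keap1 inactivated. All were collected about 4 months after virus was given, and the comparison asks how Keap1 shapes the development of this cancer. How Keap1 was inactivated, which cells the virus reached, the strain and age of the mice, and whether each sample came from a separate animal are not stated in the labels. The p-values below therefore measure only the spread between these samples.

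KEAP1 directs the transcription factor NRF2 to destruction by a ubiquitin ligase, and when KEAP1 is lost NRF2 accumulates and switches on genes for glutathione synthesis, detoxification and NADPH supply through antioxidant response elements in their promoters. A gene with no reads in a tumour is usually closed in that cell lineage, and many of the genes below are better known from liver, intestine, kidney, testis or bladder than from lung. Small cell lung cancer is a neuroendocrine tumour.

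Library totals ran from 18731515 to 23759892 reads. Keap1 itself was at 77.0, 75.6 and 62.9 CPM in the controls and at 66.4, 89.2 and 76.5 CPM in the knockouts (log2 fold change 0.18, edgeR quasi-likelihood test with Benjamini-Hochberg adjusted p = 0.564), so its read count does not separate the labels. Of 49 tested NRF2 target genes on 3 lists, 23 rose and none fell in edgeR's test, against 2.42% of all 17901 genes tested that rose and 1.89% that fell. At an unadjusted p below 0.05, 36 were higher and 0 lower, where 5493 of all genes passed in either direction. DESeq2 called 38 higher and 0 lower, against 11.5% of all genes called higher and 4642 of 17901 called in either direction. The same numbers over all genes apply to the counts of each list below. Among the NRF2 targets Gclc, whose product catalyses the rate-limiting step of glutathione synthesis, rose from 199 ± 114 to 4590 ± 1130 CPM (SD, n = 3, edgeR adjusted p = 0.03). That count of 23 was 28, 11 and 29 without control 1, 2 or 3, where 1.9%, 0.773% and 8.4% of all genes were called higher. It was 0 without any 1 of the knockouts, where over all genes 2, 0 and 0 were higher. The controls differed among themselves. The 12 neuroendocrine markers summed to 124, 74.5 and 5850 CPM in controls 1, 2 and 3 and to 52.2 to 210 CPM in the knockouts. The keratinocyte markers were highest in control 1 (6060, 146 and 27.7 CPM) and the fibroblast markers in control 2 (377, 33700 and 3710 CPM). In bulk tumour RNA, fewer cells of a type and less RNA per cell cannot be told apart.

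The sequences of 2 pairs of genes are shown first, because the results return to them. Gm5678 is a gene model whose 939-base transcript matches along its whole length the transcript of Cbr1, a carbonyl reductase that reduces quinones and other carbonyls with NADPH. GENCODE lists it as protein coding and RefSeq as a pseudogene. Over the coding sequence of Cbr1, 741 of 815 aligned bases were identical (90.9%). The stretch below covers bases 19 to 168 of the Cbr1 coding sequence in the GENCODE M21 transcripts, 5′ to 3′, and the capitals mark the 26 bases at which the transcripts differ.
Gm5678: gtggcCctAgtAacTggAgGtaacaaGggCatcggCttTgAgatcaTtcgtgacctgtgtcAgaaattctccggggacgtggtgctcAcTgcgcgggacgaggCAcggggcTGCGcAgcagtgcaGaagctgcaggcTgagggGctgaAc
Cbr1: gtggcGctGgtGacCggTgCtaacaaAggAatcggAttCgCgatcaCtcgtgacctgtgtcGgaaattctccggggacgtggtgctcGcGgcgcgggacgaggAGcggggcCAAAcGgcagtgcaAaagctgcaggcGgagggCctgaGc
The differences lie at both ends and in the middle of the stretch, with runs of identical bases between them.

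BC051665 and Ctsll3 are cathepsin L-like cysteine protease genes that lie next to each other on chromosome 13, on the same strand. They are the only neighbouring pair among the 31 genes. The stretches below are from the RefSeq promoter table (GRCm38.p6), from 150 bases before the annotated transcription start of each gene to just past it, on the minus strand at chr13:60786340-60786514 for BC051665 and chr13:60802820-60802994 for Ctsll3. Capitals mark the single match in each to the antioxidant response element core TGACNNNGC, read here on the opposite strand, which begins 5 bases before the annotated start.
BC051665: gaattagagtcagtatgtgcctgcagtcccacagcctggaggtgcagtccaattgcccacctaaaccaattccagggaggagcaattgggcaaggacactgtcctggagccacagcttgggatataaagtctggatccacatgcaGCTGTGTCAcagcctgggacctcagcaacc
Ctsll3: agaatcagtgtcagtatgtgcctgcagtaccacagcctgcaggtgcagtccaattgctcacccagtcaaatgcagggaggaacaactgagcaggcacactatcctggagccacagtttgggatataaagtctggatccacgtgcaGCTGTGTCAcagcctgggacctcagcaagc
The whole 300-base windows of the pair aligned with 268 identical bases and 27 mismatches (90.8% identity), so the matches are in shared sequence and are not separate occurrences.

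Summed over the 31 genes, the controls had 7.077, 8.953 and 6.62 CPM and the knockouts 1299, 937.8 and 1091 CPM. All genes and all controls together gave 444 reads. No read in any control was found for Gm5678, BC051665, Gm9195 and Ctsll3, and 0 of 58678407 control reads allows a level of up to 0.0511 CPM, counting error only. Trim54, Gm35330 and Sdr16c5 had 1 to 3 control reads over the 3 libraries, and the other 24 genes had more, up to 41 for Catip. The mean knockout level was under 10 CPM for 9 genes, from 10 to under 20 CPM for 11, from 20 to under 50 CPM for 9 and above that for Gm5678 and Upk3b. The median of the gene means was 0.228 CPM over the controls and 13.1 CPM over the knockouts.

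**Figure D1:**
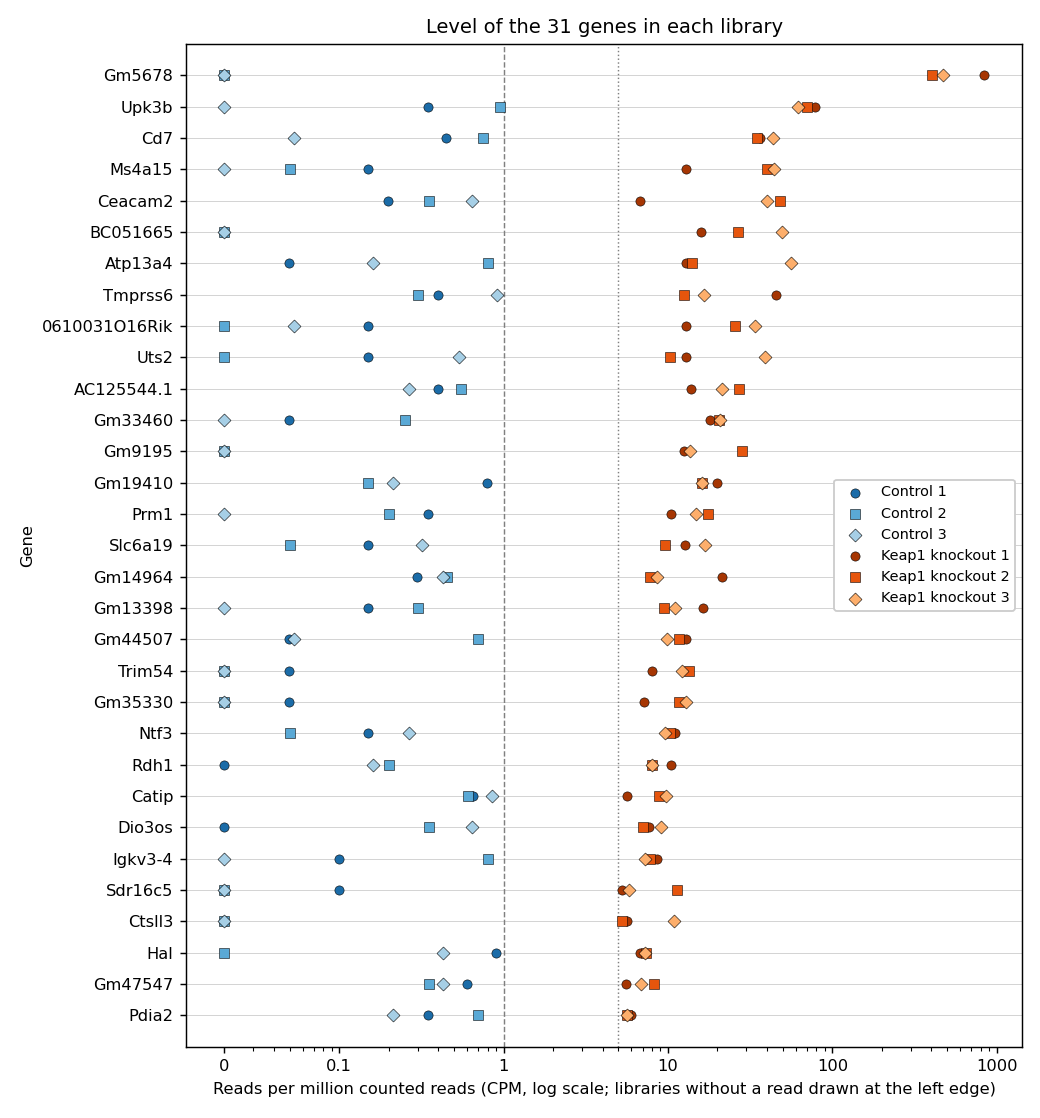
CPM of each of the 31 genes in each of the 6 libraries, on a log axis, with the controls and the Keap1 knockouts marked. The controls lie at or under 1 CPM and the knockouts at or above 5 CPM, as the choice of the genes requires, and Gm5678 is the gene furthest to the high side, with 403 to 840 CPM.

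The limits cut through a continuous range of genes. Just inside the control limit were Upk3b, Tmprss6 and Hal, with a highest control of 0.956, 0.908 and 0.897 CPM. Just outside it were Hcrtr1 at 1.01 CPM (7.95 to 18.0 CPM in knockouts), Dusp13 at 1.06 CPM and Ctla4 at 1.1 CPM. Just inside the knockout limit were Ctsll3, Sdr16c5 and Gm47547, with a lowest knockout of 5.22, 5.23 and 5.55 CPM. Outside it the nearest were Nfe2, whose lowest knockout rounds to 5.0 CPM but lies below it, Tdrd12 at 4.91 CPM and Gm35696 at 4.25 CPM. The mirrored rule, with the genotypes exchanged, was met by 15 genes.

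All 31 genes passed the filter on low counts. The quasi-likelihood test of edgeR (adjusted p below 0.05) called 27 of them, each higher, which follows from how they were chosen. Of the 17901 genes tested it called 4.31%, 2.42% as higher and 1.89% as lower. The authors' deposited table lists 30 of them, without AC125544.1, all with a positive log2 fold change and an adjusted p below the same threshold, against 7.1% of its genes.

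Among the enzymes, Gm5678 had no read in any control and 840, 403 and 469 CPM in knockouts 1, 2 and 3, which is at least 11061-fold higher (571 ± 236 CPM, SD, n = 3). It was also the gene with the highest level per kilobase of exon, at 608 CPM per kb. The matching Cbr1 was at 38.8, 31.6 and 45.2 CPM in controls and 604, 444 and 344 CPM in knockouts. Control reads of Cbr1 numbered 2255, and none was counted for Gm5678, which allows Gm5678 up to 0.133% of them. In the knockouts Gm5678 had 139%, 90.7% and 136% of the Cbr1 reads, so it exceeded Cbr1 in knockouts 1 and 3. Both of its flanking genes, Cbr1 and the related carbonyl reductase Cbr3, rose (log2 fold change 3.67 and 5.74, edgeR adjusted p = 0.0123 and 0.03). No label or header states how the counting treated reads that fit both Gm5678 and Cbr1, and the split between them is uncertain to that extent.

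BC051665 had no control read and 15.9, 26.6 and 49.2 CPM in the knockouts, at least 608-fold higher. Its neighbour Ctsll3 had no control read and 5.60, 5.22 and 10.9 CPM, at least 143-fold higher. Knockout 3 was the highest library for both genes. The 84.8% identity of their transcripts over 1342 bases is under the 90% at which genes were treated as near copies. Of 10 related genes tested (8 other cathepsins, the inhibitor-like Ctla2a and Gm10312), edgeR called none, with 1 higher and 1 lower at an unadjusted p below 0.05 and 1 higher and 2 lower called by DESeq2. That Gm10312, on the other side of BC051665, had no control read and 0.734, 5.40 and 3.58 CPM in the knockouts (edgeR adjusted p = 0.0596).

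Tmprss6, a membrane serine protease that restrains hepcidin production in liver, was at 0.399, 0.302 and 0.908 CPM in controls and 45.1, 12.6 and 16.5 CPM in knockouts. Knockout 1 was at least 2 times both other knockouts. Hepcidin itself, Hamp, was at 0.562 ± 0.508 and 0.547 ± 0.242 CPM (SD, n = 3). Knockout 1 was also the library with the most reads of the hepatocyte product albumin, Alb, at 29.2 CPM against 0.0439 and 4.59 CPM in knockouts 2 and 3 and at most 0.101 CPM in controls. The summed level of 10 hepatocyte markers was 9.97, 12.2 and 168 CPM in controls and 84.8, 20.9 and 22.4 CPM in knockouts. Ttr gave most of that sum in each library, at 9.12, 8.85 and 163 CPM in controls and 46.0, 19.8 and 12.9 CPM in knockouts. Among the knockouts the sum was thus highest in knockout 1, as Tmprss6 was. The part of hepatocyte markers in the Tmprss6 level was not tested.

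Hal, histidine ammonia-lyase, the first enzyme of histidine breakdown, was at 0.897, 0 and 0.427 CPM in controls and 6.79, 7.37 and 7.20 CPM in knockouts. Its knockout values hardly differed, and its level per kilobase was the lowest of the 31 genes at 1.28 CPM per kb. Amdhd1, which lies beside Hal and acts later in the same pathway, rose from 1.79, 0.704 and 1.33 CPM to 11.6, 7.11 and 11.3 CPM (edgeR adjusted p = 0.0402). The other pathway enzymes Uroc1 and Ftcd were not tested for want of reads, with means of 1.78 and 0.209 CPM in the controls and 0.405 and 0.0752 CPM in the knockouts.

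Rdh1 and Sdr16c5 are short-chain dehydrogenases that oxidise retinol to retinal, the first step towards retinoic acid. Rdh1 was at 0, 0.201 and 0.160 CPM in controls and 10.4, 7.99 and 7.95 CPM in knockouts. Sdr16c5 had 2 control reads and 5.23, 11.3 and 5.77 CPM in knockouts (218-fold, counting interval 60.2 to 1809). Its neighbour Sdr16c6, which met the same limits, had no control read and 152, 124 and 126 CPM in the knockouts. Sdr16c5 reached 3.43%, 9.15% and 4.59% of the Sdr16c6 reads there. On a list of other genes of retinoid oxidation, 4 of 11 tested rose and none fell in edgeR's test, against 2.42% of all genes tested that rose. The 4 were Adh1, Adh7, Aldh1a1 and Sdr16c6, and since Sdr16c6 met the level limits itself its call follows from them. At an unadjusted p below 0.05, 4 on the list were higher and 1 was lower. DESeq2 called 4 higher and 2 lower, against 11.5% of all genes called higher. Aldh1a1, which makes retinoic acid from retinal, rose from 79.4 ± 42.4 to 1040 ± 323 CPM (SD, n = 3, edgeR adjusted p = 0.0391). Part of the Rdh1 transcript, 1778 bases, matched Rdh16f1, which had no read in any library, at 91.1% identity. In all, 371 other genes matched the Rdh1 transcript at 90% identity or more over at least 100 bases, so its level is uncertain to that extent.

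Pdia2, a protein disulphide isomerase best known from pancreas, was at 0.349, 0.704 and 0.214 CPM in controls and 5.96, 5.66 and 5.60 CPM in knockouts. It varied least of all 31 genes among the knockouts, where the limit of at least 5 CPM leaves a gene at this level little room to vary. None of the 5 other disulphide isomerases tested was called by edgeR or DESeq2, with 0 at an unadjusted p below 0.05. The neighbour on the same strand, Arhgdig rose from 6.04 ± 3.2 to 41.6 ± 7.05 CPM (SD, n = 3, edgeR adjusted p = 0.0413).

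Among transporters and membrane proteins, Upk3b had the second highest level. Upk3b, a uroplakin of bladder lining that is also made by mesothelium, was at 0.349, 0.956 and 0 CPM in controls and 77.8, 70.1 and 62.0 CPM in knockouts (157-fold). None of the 4 other uroplakin genes tested was called by edgeR or DESeq2, with 0 at an unadjusted p below 0.05. On a list of 8 mesothelial markers the summed level was 167 to 1600 CPM in controls and 846 to 1270 CPM in knockouts, most of it from Krt19, a keratin of epithelia in general. Without Krt19 the sum was 110, 95.5 and 89.2 CPM in controls and 30.6, 56.5 and 58.1 CPM in knockouts. Msln, the mesothelin gene, averaged 67.0 ± 19.3 CPM in the controls and 28.8 ± 7.84 CPM in the knockouts (SD, n = 3, edgeR adjusted p = 0.0855), and Lrrn4 was the 1 mesothelial marker that edgeR called, higher, from 0.119 to 2.43 CPM (adjusted p = 0.0377). At an unadjusted p below 0.05, 2 of the 6 tested were higher and 1 was lower, and DESeq2 called the same numbers. The part of mesothelial cells in the Upk3b level was not tested.

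Slc6a19, the transporter that takes up neutral amino acids in gut and kidney, was at 0.150, 0.0503 and 0.320 CPM in controls and 12.7, 9.65 and 16.9 CPM in knockouts. The 7 kidney tubule markers summed to 57.2 to 300 CPM in controls and 50.8 to 114 CPM in knockouts. Aqp1, a water channel also made by blood vessels, had the most reads of them, at 97.3, 280 and 51.6 CPM in controls and 74.9, 88.2 and 41.7 CPM in knockouts. Lrp2, an uptake receptor also found in lung, was at 7.13, 19.4 and 0.641 CPM in controls and 16.3, 19.4 and 8.46 CPM in knockouts, and Slc22a6 had no read in any library. None of the 3 kidney markers tested was called by edgeR or DESeq2, with 0 at an unadjusted p below 0.05. None of 8 tested intestinal markers was called by edgeR, with 2 higher and 1 lower at an unadjusted p below 0.05 and 1 each way called by DESeq2. The intestinal list had a summed level of 25 to 197 CPM in controls and 44.8 to 115 CPM in knockouts.

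Atp13a4, a P5-type ATPase of internal membranes, was at 0.0498, 0.805 and 0.160 CPM in controls and 12.8, 14.0 and 55.6 CPM in knockouts. Knockout 3 was at least 2 times both others, and the coefficient of variation among knockouts, 0.888, was the highest of the 31. Ms4a15, a 4-span membrane protein known from lung, was at 0.150, 0.0503 and 0 CPM in controls and 12.8, 39.9 and 44.2 CPM in knockouts (480-fold). Knockout 1 was the low library for Ms4a15. The 7 alveolar type 2 markers, from the lung cells that line the air sacs and make surfactant, summed to 167 to 1120 CPM in controls and to 1430, 4190 and 1520 CPM in knockouts 1, 2 and 3. None of the 7 was called by edgeR or DESeq2, with 0 at an unadjusted p below 0.05, and their part in the Ms4a15 level was not tested. None of 11 other Ms4a genes tested was called by edgeR, with 7 lower at an unadjusted p below 0.05 and the same number called lower by DESeq2. Of all 17901 genes, 5493 passed that unadjusted limit and DESeq2 called 4642, each in either direction. None of 3 other P5-type ATPases was called by edgeR or DESeq2, with 0 at an unadjusted p below 0.05.

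Ceacam2, a cell adhesion molecule of the immunoglobulin family, was at 0.199, 0.352 and 0.641 CPM in controls and 6.74, 48.3 and 40.1 CPM in knockouts. Knockout 1 was the lowest of the knockouts by a wide margin. Its transcript matched that of the neighbouring Ceacam1 at 92.8% identity over 2676 bases, and the split of reads between the 2 genes depends on the counting. Ceacam1 was at 517, 304 and 54.5 CPM in controls and 145, 114 and 95.7 CPM in knockouts (log2 fold change -1.26, edgeR adjusted p = 0.302). In the controls 23 Ceacam2 reads stood beside 17447 Ceacam1 reads, and Ceacam2 had 4.66%, 42.2% and 41.8% of the Ceacam1 reads in knockouts 1, 2 and 3. The 2 genes therefore did not keep a fixed ratio between groups or among the knockouts.

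Cd7, a surface protein of T and NK cells, was at 0.449, 0.754 and 0.0534 CPM in controls and 36.4, 34.8 and 43.5 CPM in knockouts. The 8 markers of T and NK cells summed to 14.9 to 23.2 CPM in controls and 3.70 to 8.86 CPM in knockouts, and none of the 5 tested was called by edgeR, with 1 lower at an unadjusted p below 0.05 and 1 called lower by DESeq2. Cd3e, which defines T cells, was at 0.834 CPM or less in each knockout, and Ncr1, which defines NK cells, had no read there. The neighbouring Sectm1b, a member of the family that holds the ligands of CD7, was at 10.8, 76.4 and 2.08 CPM in controls and 84.9, 101 and 77.8 CPM in knockouts (edgeR adjusted p = 0.372). High Cd7 thus stood beside low levels of the other markers of its usual cells.

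Among secreted ligands, Ntf3, which encodes the neurotrophin that acts on the receptor TrkC, was at 0.150, 0.0503 and 0.267 CPM in controls and 11.0, 10.3 and 9.64 CPM in knockouts. Its receptor gene Ntrk3 fell from 5.83 ± 2.43 to 0.843 ± 0.257 CPM (SD, n = 3, edgeR adjusted p = 0.0442), the 1 gene called among 7 tested on a neurotrophin list, where DESeq2 called 3, all lower. Over all genes edgeR called 1.89% lower, and DESeq2 called 4642 of 17901 in either direction. Uts2, the vasoactive peptide urotensin 2, was at 0.150, 0 and 0.534 CPM in controls and 12.8, 10.3 and 39.0 CPM in knockouts. Its receptor Uts2r was at 0.596 CPM or less in each knockout. Per kilobase Uts2 ranked next after Gm5678 on the mean knockout level, at 38.5 CPM per kb. Its gene lies within the bounds of Camta1, which had 4269 reads in controls beside 13 of Uts2.

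The remaining coding genes are known from germ cells, muscle, cilia and B cells. Prm1, the protamine that packs sperm DNA, was at 0.349, 0.201 and 0 CPM in controls and 10.4, 17.6 and 14.9 CPM in knockouts. Prm2, its partner in sperm, had no control read and 0.413, 0.658 and 0.589 CPM in knockouts, and the transition protein gene Tnp1 had no read in any knockout. Trim54, a ring finger protein of the muscle sarcomere, had 1 control read and 7.94, 13.5 and 12.2 CPM in knockouts (661-fold, counting interval 118 to 26144). The related Trim55 and Trim63 were under 1 CPM in every library, and the 10 muscle markers summed to 11.4 to 135 CPM in controls and 12.0 to 22.2 CPM in knockouts. Prm1 and Trim54 thus stood beside low levels of the related genes of sperm and muscle.

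Catip, a protein needed for cilia, came nearest to overlap between the groups, with 0.648, 0.604 and 0.854 CPM in controls and 5.60, 8.82 and 9.68 CPM in knockouts (11.6-fold). The 7 ciliated-cell markers summed to 60.3 to 195 CPM in controls and 56.3 to 95.2 CPM in knockouts. Slc11a1, the iron and manganese transporter beside Catip, rose from 17.7 ± 6.06 to 131 ± 70.1 CPM (SD, n = 3, edgeR adjusted p = 0.0491). Igkv3-4, a variable segment of the antibody kappa chain, was at 0.0997, 0.805 and 0 CPM in controls and 8.62, 7.77 and 7.20 CPM in knockouts. The 6 B-cell markers summed to 55.1 to 130 CPM in controls and 155 to 258 CPM in knockouts, with none called by edgeR or DESeq2 and 1 higher at an unadjusted p below 0.05. Jchain, which plasma cells make, gave most of that sum, and the other 5 markers summed to 6.98 to 12.6 CPM in controls and 8.08 to 13.0 CPM in knockouts. The constant segment Igkc was at 208, 378 and 180 CPM and at 452, 395 and 484 CPM. The other 99 kappa variable genes summed to 138 to 238 CPM in controls and 141 to 188 CPM in knockouts. The part of B cells in the Igkv3-4 level was not tested, and Igkv3-4 is at least 90% identical to 5 other genes over 100 bases or more.

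Gm9195 and Gm19410 are coding gene models without a named function here. Gm9195 had no control read and 12.5, 28.1 and 13.7 CPM in knockouts, at least 355-fold higher, with knockout 2 at least 2 times both others. Gm19410 was at 0.797, 0.151 and 0.214 CPM in controls and 19.8, 16.1 and 16.1 CPM in knockouts. Its exon length of 6352 bases brings it to 2.73 CPM per kb.

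Of the 31 genes, GENCODE lists 21 as protein coding (67.7%, against 83.8% of all tested genes) and 5 as antisense RNAs (16.1%, against 3.07%). The 5 are 0610031O16Rik, Gm33460, Gm14964, Gm13398 and Gm47547. No label or header states whether the counting used strand, and without strand the reads of a gene and its antisense partner cannot be told apart where they overlap.

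Gm33460 overlaps Eomes, a T-box transcription factor of early mesendoderm, on the opposite strand, and 119 bases of their transcripts coincide. It was at 0.0498, 0.251 and 0 CPM in controls and 18.0, 20.4 and 20.6 CPM in knockouts. Eomes was at 0.598, 0.805 and 0.160 CPM in controls and 880, 997 and 953 CPM in knockouts. Gm33460 had 2.05%, 2.04% and 2.16% of the Eomes reads in knockouts 1, 2 and 3. In the controls it was 6 of 31 reads (19.4%), too few to set beside these shares. On its other side 4933432G23Rik had no control read and 0.642, 1.49 and 0.884 CPM in knockouts (edgeR adjusted p = 0.0436).

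0610031O16Rik overlaps Adh7, an alcohol and retinol dehydrogenase, on the opposite strand. It was at 0.150, 0 and 0.0534 CPM in controls and 12.8, 25.6 and 33.7 CPM in knockouts. Adh7 was at 27.7, 3.22 and 4.43 CPM in controls and 1350, 2470 and 2950 CPM in knockouts, and 0610031O16Rik had 0.945%, 1.04% and 1.14% of its reads there. The order of the knockouts was the same for both genes. In the controls 4 reads stood beside 702 of Adh7, or 0.57%.

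Gm14964 overlaps Nrxn2, a neuronal adhesion molecule, and did not follow it between the groups. It was at 0.299, 0.453 and 0.427 CPM in controls and 21.3, 7.77 and 8.59 CPM in knockouts. Nrxn2 was at 3.49, 2.82 and 114 CPM in controls and 94.4, 18.0 and 17.3 CPM in knockouts. Among the knockouts both genes were thus highest in knockout 1. Nrxn2 had 2133 reads in control 3 with 8 of Gm14964 beside them (0.375%), and 2059 reads in knockout 1 with 464 of Gm14964 (22.5%). At a like Nrxn2 level the antisense count thus differed between these 2 libraries. Gm13398 was at 0.150, 0.302 and 0 CPM in controls and 16.4, 9.52 and 11.1 CPM in knockouts. Gm47547 was at 0.598, 0.352 and 0.427 CPM in controls and 5.55, 8.21 and 6.90 CPM in knockouts. Its level is uncertain because nearly its whole transcript matches Gm8113 at 96.0% identity. In all, 12 other genes matched the transcript at 90% identity or more over at least 100 bases.

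**Figure D2:**
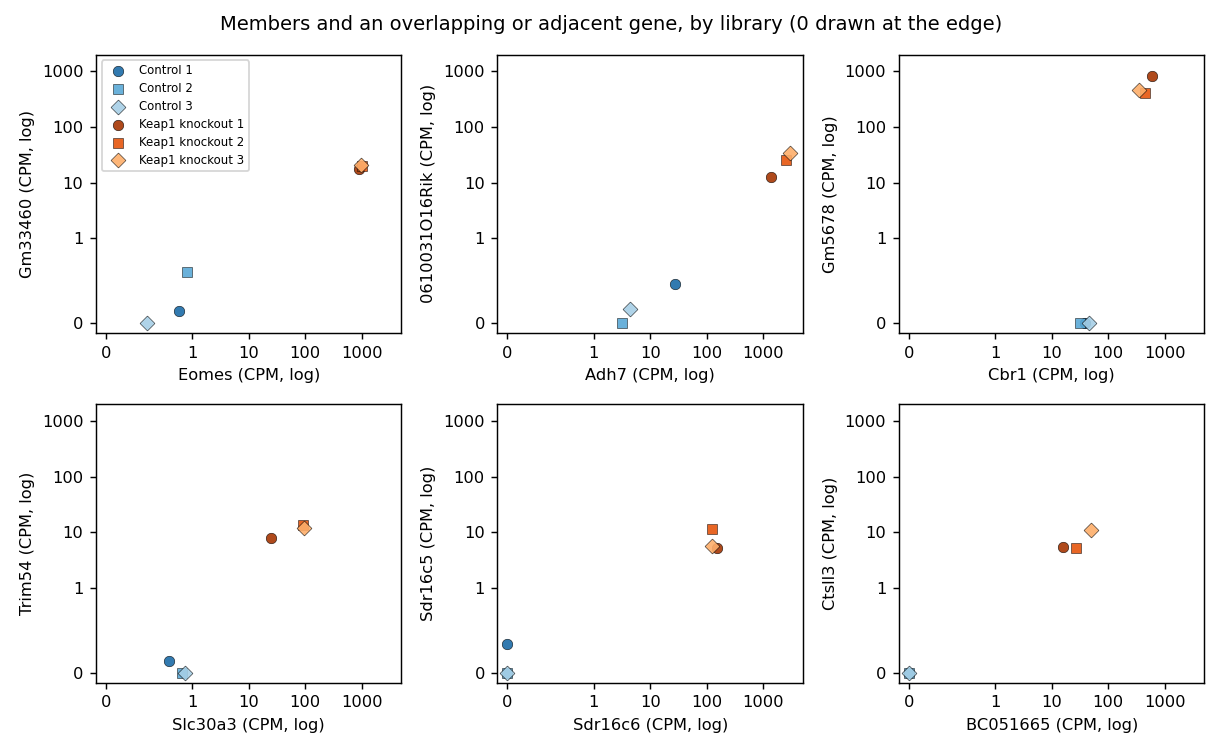
CPM of 6 of the genes (vertical) against an overlapping or adjacent gene (horizontal), on log axes with 0 drawn at the edge, 1 point per library. The knockouts lie to the upper right of the controls in each panel, and Gm5678 has no control read although Cbr1 is at 31.6 to 45.2 CPM there.

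The other non-coding genes were Gm44507, Gm35330, Dio3os and AC125544.1. Gm44507 was at 0.0498, 0.704 and 0.0534 CPM in controls and 12.9, 11.6 and 9.81 CPM in knockouts. It lies beside Tsku, a secreted leucine-rich protein, on the same strand, and had 3.02%, 2.80% and 2.50% of the Tsku reads in knockouts. Tsku rose from 19.1 ± 16 to 411 ± 18.3 CPM (SD, n = 3, edgeR adjusted p = 0.0381). Gm35330 had 1 control read and 7.16, 11.6 and 12.9 CPM in knockouts (625-fold, counting interval 112 to 24720).

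Dio3os shares a divergent promoter region with Dio3, the deiodinase that inactivates thyroid hormone, in an imprinted region that also holds Meg3. Dio3os was at 0, 0.352 and 0.641 CPM in controls and 7.66, 7.07 and 9.05 CPM in knockouts. Dio3 averaged 0.589 ± 0.426 CPM in the controls and 2.51 ± 0.349 CPM in the knockouts (SD, n = 3, edgeR adjusted p = 0.0761). Meg3 fell, from 19.5, 25 and 149 CPM to 2.80, 2.59 and 2.23 CPM (edgeR adjusted p = 0.0499), with all knockouts below all controls. The levels of Dio3os and Meg3 thus lay on opposite sides of the controls. AC125544.1, which lies within the bounds of Btbd9, was at 0.399, 0.553 and 0.267 CPM in controls and 13.8, 26.9 and 21.2 CPM in knockouts. Btbd9 was at 35.3 ± 5.59 and 26.1 ± 2.34 CPM (SD, n = 3, edgeR adjusted p = 0.288). The AC125544.1 transcript matched 58 other genes at 90% identity or more over at least 100 bases, so its level is uncertain to that extent.

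The spread among the 3 knockouts was compared with that of other genes, without a test. The median coefficient of variation of the 31 genes was 0.279, from 0.034 for Pdia2 to 0.888 for Atp13a4, and that of 11229 other genes in the same range of mean knockout CPM was 0.107. Those others held a larger share of genes from 20 CPM up than the 31 did. They were also not held to at least 5 CPM in each knockout, a limit that narrows the spread of the 31 most at low levels. Under 20 CPM the medians were 0.224 for 20 of the genes and 0.169 for 2962 others, and from 20 CPM up they were 0.528 for 11 genes and 0.0931 for 8267 others. Without knockout 1 the medians over all levels were 0.12 and 0.0798, a smaller gap. The highest knockout was at least 2 times the lowest for 12 of the 31 genes (38.7%, against 7.61% of the others). After Atp13a4 the largest coefficients were those of Uts2 (0.767), Tmprss6 (0.718), Ceacam2 (0.694) and Gm14964 (0.604). After Pdia2 the smallest were those of Hal (0.0421), Ntf3 (0.0666), Gm33460 (0.0727) and Igkv3-4 (0.0913).

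Knockout 1 was the lowest of the knockouts for 15 genes (48.4%, against 30.6% of the others) and the highest for 11 (35.5%, against 41.8%). Ms4a15, Ceacam2 and 0610031O16Rik were lower there than in either other knockout by at least 2 times, and Tmprss6 and Gm14964 were higher by as much. Atp13a4 and Uts2 stood out in the same way in knockout 3, and Gm9195 in knockout 2. For 12 genes, among them Upk3b, Cd7, Gm33460, Ntf3 and Hal, the highest knockout was under 1.5 times the lowest. No single order of the knockouts thus held for all 31 genes. Knockout 1 also differed from the other knockouts in Xist, at 0.275 CPM against 1240 and 1370 CPM, and in Alb as given above, and the part of neither in this spread was tested.

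**Figure D3:**
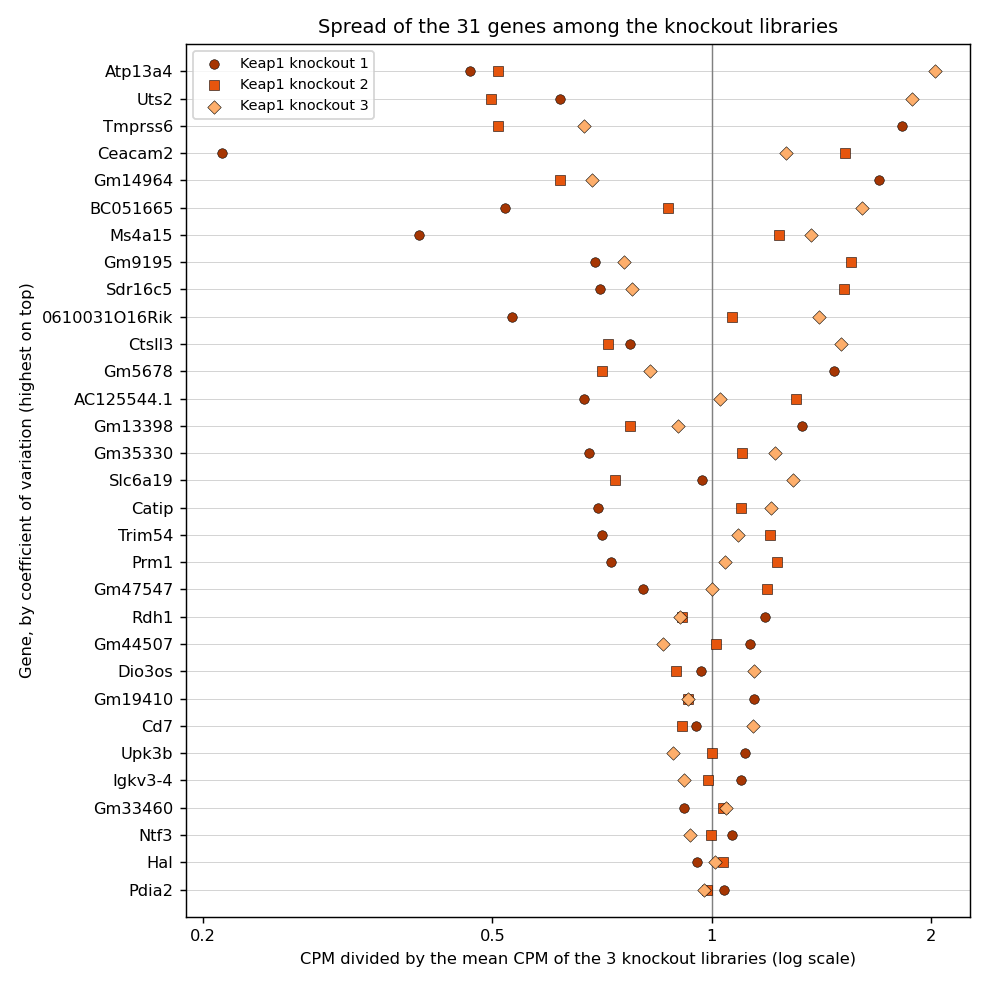
Level of each gene in each knockout library divided by its mean over the 3 knockouts, on a log axis, with the genes in order of their coefficient of variation. Pdia2, Hal and Ntf3 lie close to 1 in all 3 libraries, and Ceacam2 and Ms4a15 lie far to the low side in knockout 1.

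The genes next to or overlapping the 31 on their chromosomes were not part of the set, but their calls are not all independent of the choice. Of 67 such neighbours tested, 12 rose (17.9%, against 2.42% of all genes tested) and none fell in edgeR's test, with a median log2 fold change of 0.74 against -0.08 over all genes. Those that rose were Adh1, Adh7, Slc11a1, 4933432G23Rik, Eomes, Tsku, Cbr1, Cbr3, Amdhd1, Arhgdig, Sdr16c6 and Slc30a3. Of these, Eomes, Sdr16c6 and Slc30a3 met the level limits themselves and had been set aside by symbol, so their calls follow from those limits. Adh7 and Eomes overlap a member and Cbr1 matches one in sequence, so some reads may be shared. The share without these genes was not computed. The count of 12 was 9, 6 and 23 without control 1, 2 or 3 and 1, 0 and 0 without knockout 1, 2 or 3. The fits without control 1, 2 or 3 called 1.9%, 0.773% and 8.4% of all genes higher. Over all genes the fits without knockout 1, 2 or 3 called 2, 0 and 0 genes higher. With all libraries, 25 neighbours were higher and 7 lower at an unadjusted p below 0.05, and DESeq2 called 24 higher and 7 lower. At the same thresholds 5493 of all 17901 genes passed the unadjusted limit in either direction, and DESeq2 called 11.5% of all genes higher.

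Trim54 and its neighbour Slc30a3, a zinc transporter, were both lowest in knockout 1 but differed in how far they varied. Slc30a3 was at 24.6, 90.9 and 94.1 CPM in the knockouts and Trim54 at 7.94, 13.5 and 12.2 CPM. Trim54 thus had 32.3%, 14.8% and 13.0% of the Slc30a3 reads. Other neighbours were not called, such as Opa1 beside Atp13a4 (114 ± 14.2 and 77.2 ± 2.61 CPM, SD, n = 3, edgeR adjusted p = 0.118) and Slc12a7 beside Slc6a19 (edgeR adjusted p = 0.463).

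**Figure D4:**
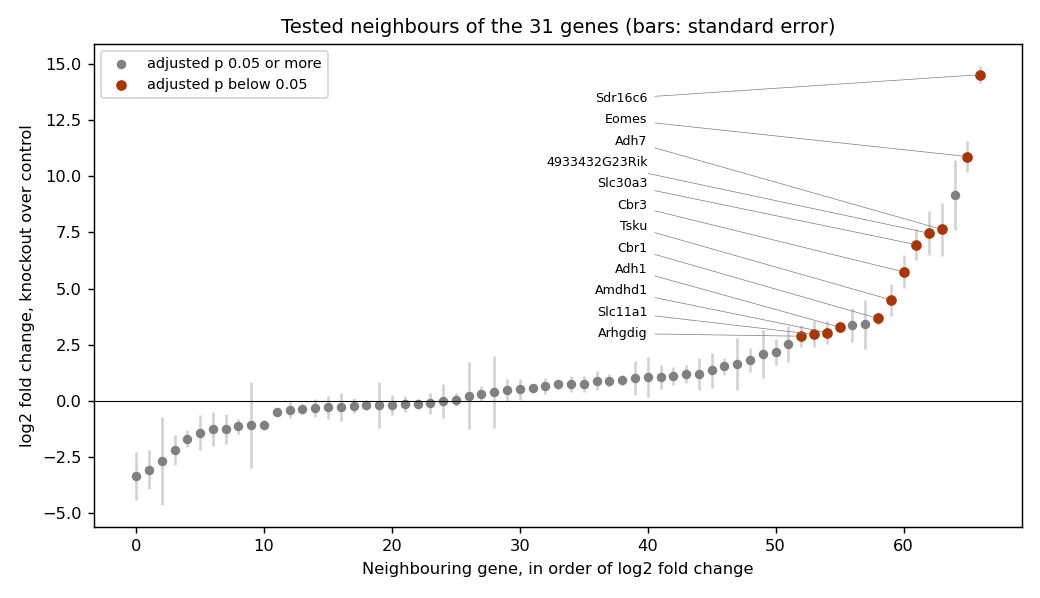
Log2 fold change with its standard error, knockout over control, of the 67 tested genes next to or overlapping the 31 genes, in order of size. The 12 that rose are named and have log2 fold changes from 2.88 for Arhgdig to 14.51 for Sdr16c6.

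Promoter windows, from 250 bases before to 50 bases after the annotated start, were found for 22 of the 31 genes in the RefSeq table (GRCm38.p6), and AC125544.1, Cd7, Gm14964, Gm35330, Gm47547, Gm5678, Igkv3-4, Sdr16c5 and Tmprss6 were not matched. All motifs were searched on both strands. The antioxidant response element core TGACNNNGC was in the windows of BC051665 and Ctsll3 and of no other of the 22 genes (9.09%, exact 95% interval 1.12 to 29.2), against 14.0% of all 27025 genes with a window. The longer form TGACTCAGC was in none, against 0.503% of all genes. A match is a description of the letters, not a binding site.

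The AP-1 motif TGACTCA, or TGAGTCA on the other strand, was in 4 windows (18.2%, exact 95% interval 5.19 to 40.3), against 5.95% of all genes, those of Atp13a4, Gm44507, Rdh1 and Trim54. The T-box motif AGGTGTGA was in 3 windows (13.6%, exact 95% interval 2.91 to 34.9), against 1.48% of all genes, those of Atp13a4, Gm13398 and Gm44507. The AP-1 letters are part of TGACTCAGC, and the T-box motif ends in TGA, the letters with which the other motifs begin. Atp13a4 and Gm44507 held both AP-1 and T-box matches. The stretches around these T-box matches are printed below because that motif was the one furthest above its share in all genes, with the motif in capitals and 25 bases on either side, read on the plus strand at chr2:27036907-27036964 for Gm13398 and on the minus strand at chr7:98415691-98415748 for Gm44507 and chr16:29544882-29544939 for Atp13a4.
Gm13398: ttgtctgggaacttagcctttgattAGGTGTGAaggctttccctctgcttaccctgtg
Gm44507: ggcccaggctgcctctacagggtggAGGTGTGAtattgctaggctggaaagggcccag
Atp13a4: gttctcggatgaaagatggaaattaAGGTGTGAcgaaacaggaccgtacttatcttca
Within the 200 bases nearest the start the T-box motif was in 2 of 22 windows, against 0.907% of all genes, since the Gm13398 match lies further out. The AP-1 motif was also in 2 there (9.09%, against 4.14% of all genes), those of Gm44507 and Trim54.

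**Figure D5:**
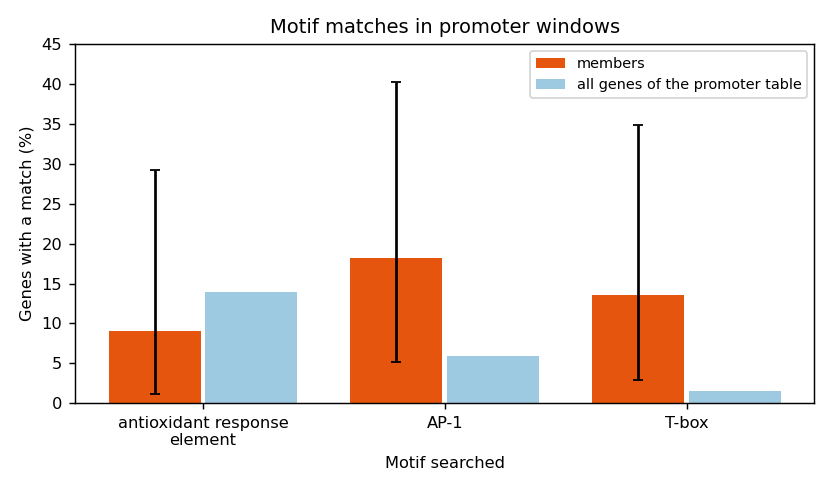
Percent of genes whose promoter window holds each motif, for the 22 of the 31 genes with a window and for all 27025 genes of the promoter table, with exact 95% intervals as bars on the former. The intervals are wide, and the one for the antioxidant response element spans the share in all genes (14.0%).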

How the data were processed

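Bulk mRNA from 3 control and 3 Keap1 knockout tumours was sequenced as paired-end libraries. The authors deposited whole-number read counts per Ensembl gene, made, per the submitters' processing notes, from reads aligned with STAR to mm39. Which tool counted them, on which annotation, and how it used strand and reads with several matches is not given in the sources used here. The authors' deposited DESeq2 table gives, per the file headers, a mean normalized signal, a log2 fold change, a test score and a p-value per gene, and only its log2 values and p-values are quoted.

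CPM is 1000000 times a gene's count over the library's total count. The main comparison used edgeR 4.0.16 (R 4.3.3) on the deposited counts, with its default filter, TMM scaling and the robust quasi-likelihood test, two-sided, on all 6 libraries, with Benjamini-Hochberg adjustment over all 17901 genes tested. The median log2 fold change of all genes was -0.16 on column totals and -0.08 with TMM. DESeq2 1.42.0, limma 3.58.1 (voom), other filters and limits, a replicate block and fits without each library were alternatives. The edgeR step was tested on simulated data. Folds are ratios of pooled reads over pooled totals, with exact counting intervals for 1 to 3 control reads and a floor of 3 reads over the controls where there were none. Intervals and floors cover counting error only. Transcripts were compared with blastn 2.17.0 in GENCODE M21, which also gave biotypes, exon lengths and neighbours. That annotation and the promoter table are of an older build than the counts, so coordinates are given only for the printed promoter stretches, in GRCm38.p6.

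The genes and gene lists were chosen with earlier results of these data known. The lists of related genes and the mesothelial list were added after values were seen. The rule for naming genes took those with the highest knockout level, with no control read, nearest the limits, with the largest and smallest spread among knockouts, neighbouring each other or with an antioxidant response element. Every other gene of the 31 was also named, after its values were seen, as were non-member genes that lie beside or act with one of the 31.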

Additional observations from a re-analysis of the deposited data

How the results depend on the processing

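The number of genes that met the level rule was 31, and 16 or 49 with a control limit of 0.5 or 2 CPM, and 69 or 14 with a knockout limit of 2 or 10 CPM. It was 33 with TMM scaling, which kept all 31 and added Hcrtr1 and Nfe2, and from 32 to 40 when each library was left out in turn. Over all genes edgeR called 771, and 465 without the filter, and DESeq2 called 4642. Leaving out each library in turn gave 0 to 3209 genes (269 without control 2, 3209 without control 3, and 2, 0 and 0 without knockout 1, 2 or 3). The cause was not tested. Of the 31 genes, 27 were called, and 0 to 30 when each library was left out in turn (16 without control 2, 0 without any 1 of the knockouts). All 31 were at an unadjusted p below 0.05 in those fits, and DESeq2 called all 31, which follows from how they were chosen. Over all genes 3758, 3372 and 3321 were at an unadjusted p below 0.05 without knockout 1, 2 or 3. Without control 1, 2 or 3 the numbers were 6170, 5778 and 6958. No gene of the 31 changed direction under any alternative, which also follows from how they were chosen. The median coefficient of variation of 0.279 was 0.224 for those under 20 CPM and 0.528 for those from 20 CPM up, a split chosen after seeing the data, and 0.12 to 0.273 when each knockout was left out. The antioxidant response element share of 9.09% became 0% with the letters TGACTCAGC.

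Control and knockout samples share numbers in the labels. Deviations of same-numbered samples from their group means correlated at 0.0176, 0.00012 and 0.0507, within the range of differently numbered samples (-0.0624 to 0.0533). With 3 samples a group these values cannot exclude a pairing. With the sample number as a replicate block edgeR called 0 genes (4026 at an unadjusted p below 0.05), and 0 of the 31 (31 at an unadjusted p below 0.05). With 3 samples a group, an exact permutation test of a single gene could not go below p = 0.1. Genes with fewer than 3 reads over the controls have no more than a bound or a wide interval on their fold.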

Other observations

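Cela1, an elastase gene first known from pancreas, rose from 1.21 ± 0.437 to 24 ± 15.7 CPM (SD, n = 3, edgeR adjusted p = 0.0337), and was highest in knockout 1 at 42.0 CPM. The other 7 pancreatic acinar markers were under 1 CPM in every library. AW112010, beside Ms4a15, averaged 28.7 ± 21.8 CPM in the controls and 286 ± 52.0 CPM in the knockouts (SD, n = 3, edgeR adjusted p = 0.0617). Slc22a12, a urate transporter gene beside Gm14964, was at 0.0498, 0.101 and 1.12 CPM in controls and 5.96, 3.29 and 3.28 CPM in knockouts (edgeR adjusted p = 0.107).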
